A study of Mus musculus with 9 samples.

Results

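The genes examined here are 57 genes of mitosis, the kinetochore and cytokinesis, chosen by symbol from the 48820 genes of the mouse heart transcriptome. They were grouped by known role into mitotic kinases and phosphatases (5 genes), the spindle assembly checkpoint (5), anaphase promotion and separase (4), mitotic kinesins (11), the centromere and kinetochore (11), the chromosomal passenger complex (4), spindle-associated proteins (6), cytokinesis (4) and chromosome structure (7). All 57 passed the filter of a mean of at least 1 FPKM (fragments per kilobase of transcript and per 1e6 mapped fragments) over the 9 hearts. The hearts came from untreated wild-type C57BL/6J mice at embryonic day 18.5 (E18.5d), postnatal day 1 (P1d) and postnatal day 7 (P7d), with 3 biological replicates a stage, all labelled male, and whole-heart total RNA was sequenced. The question was how the transcripts of the division machinery changed around birth, when heart muscle cells are known to leave the cell cycle.

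A dividing cell condenses its chromosomes, attaches each pair of sister chromatids to the spindle through kinetochores, and holds anaphase back through the spindle assembly checkpoint until all are attached. Anaphase starts when the anaphase-promoting complex destroys securin and thereby frees separase, and cytokinesis then parts the daughter cells. Most transcripts of this machinery are made in G2 and M phase of cycling cells, so that in tissue their level is widely read as a sign of division. Mouse cardiomyocytes stop dividing within days of birth, often after a last round of DNA synthesis and nuclear division without cytokinesis, while endothelial cells, fibroblasts and other cells of the heart go on dividing. In bulk RNA, fewer cells of a type and less RNA per cell cannot be told apart.

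Genes of this class are known to be controlled through CCAAT boxes, bound by NF-Y, and through the cell cycle genes homology region (CHR), bound by the DREAM and B-MYB-MuvB complexes. Promoter windows of 300 bases (250 before and 50 after the RefSeq start, GRCm38.p6) were at hand for 50 of the 57 genes. No window was listed for *Cdc25c*, *Smc4*, *Spc24*, *Aurkb*, *Incenp*, *Kif20a* and *Tpx2*. Below are the 250 bases before the start for the gene with the largest fall at P1d on the log2 scale (*Top2a*), for the proliferation marker *Mki67*, for the spindle motor *Kif11*, for the gene with the largest ratio of P7d to P1d (*Smc2*), and for *Birc5*, which held none of the motifs. They are read 5′ to 3′ on the gene's strand, and capitals mark the CCAAT boxes and CHR matches found on either strand.
*Top2a*, minus strand, is at chr11:99024190-99024439, *Mki67*, minus strand, at chr7:135716380-135716629, *Kif11*, plus strand, at chr19:37376132-37376381, *Smc2*, plus strand, at chr4:52438971-52439220 and *Birc5*, plus strand, at chr11:117848987-117849236.
*Top2a*: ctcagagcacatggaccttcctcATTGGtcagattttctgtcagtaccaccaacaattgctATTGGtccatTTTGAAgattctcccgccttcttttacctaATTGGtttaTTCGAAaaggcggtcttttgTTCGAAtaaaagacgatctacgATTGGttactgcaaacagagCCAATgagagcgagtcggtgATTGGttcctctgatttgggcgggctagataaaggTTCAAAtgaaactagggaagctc
*Mki67*: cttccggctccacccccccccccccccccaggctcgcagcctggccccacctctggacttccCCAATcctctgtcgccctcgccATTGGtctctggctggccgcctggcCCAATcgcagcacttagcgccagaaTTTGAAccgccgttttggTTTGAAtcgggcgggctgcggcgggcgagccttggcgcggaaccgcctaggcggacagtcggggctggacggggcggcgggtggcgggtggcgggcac
*Kif11*: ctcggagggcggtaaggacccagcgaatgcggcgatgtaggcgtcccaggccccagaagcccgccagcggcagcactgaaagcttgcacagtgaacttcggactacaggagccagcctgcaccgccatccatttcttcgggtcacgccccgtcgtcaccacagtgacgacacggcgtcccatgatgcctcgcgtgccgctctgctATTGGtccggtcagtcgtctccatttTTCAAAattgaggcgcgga
*Smc2*: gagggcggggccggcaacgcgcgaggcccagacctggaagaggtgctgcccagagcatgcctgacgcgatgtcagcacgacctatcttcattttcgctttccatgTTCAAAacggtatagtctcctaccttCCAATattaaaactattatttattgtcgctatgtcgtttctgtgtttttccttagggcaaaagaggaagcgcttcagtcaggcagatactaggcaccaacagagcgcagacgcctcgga
*Birc5*: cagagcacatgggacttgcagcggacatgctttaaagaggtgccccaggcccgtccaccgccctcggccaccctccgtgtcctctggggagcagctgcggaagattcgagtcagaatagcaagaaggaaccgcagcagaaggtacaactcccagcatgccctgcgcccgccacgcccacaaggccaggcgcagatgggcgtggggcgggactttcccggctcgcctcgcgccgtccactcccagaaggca

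The *Top2a* stretch held 6 CCAAT boxes and 4 CHR matches and the *Mki67* stretch held 3 and 2, whereas *Kif11* and *Smc2* had 1 of each. Over the whole 300 bases and both strands, CCAAT was in 35 of the 50 members (70%), against 41.1% of 27025 genes with a window and 42.1% of the 16456 protein-coding ones. CHR (TTTGAA or TTCGAA) was in 38 of the 50 members (76%), against 21.7% of all genes and 19.4% of protein-coding genes. Both motifs stood in 32 members (64%), against 8.61% of all genes. With TTTGAA alone as the CHR, the shares were 72% of members and 20.2% of all genes.

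The letters TTTCGCGC, TTTGGCGC and TTTCCCGC, E2F-like motifs of genes used in DNA synthesis, were in 3 of the 50 members (6%) and in 2.12% of all genes. A list of 44 DNA replication genes with a window held them in 17 genes (38.6%), CHR in 9 (20.5%) and CCAAT in 26 (59.1%). Of 77 other mitosis genes with a window, 45 held CCAAT (58.4%), 35 held CHR (45.5%) and 12 an E2F-like motif (15.6%), so that the CCAAT shares of these lists were nearer to that of the members than to that of all genes. Within the members, CHR was in 9 of 10 kinesins, all 4 cytokinesis genes and 5 of 10 centromere and kinetochore genes. In 8 members (*Pttg1*, *Birc5*, *Plk4*, *Knstrn*, *Mad2l1*, *Ncaph*, *Nuf2* and *Nusap1*) the windows held none of the motifs. For *Pttg1* the RefSeq start lies 270 bases inside the GENCODE gene, so that its window is not that of the outermost start. These are letters in a window, not measured binding.

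**Figure D1:**
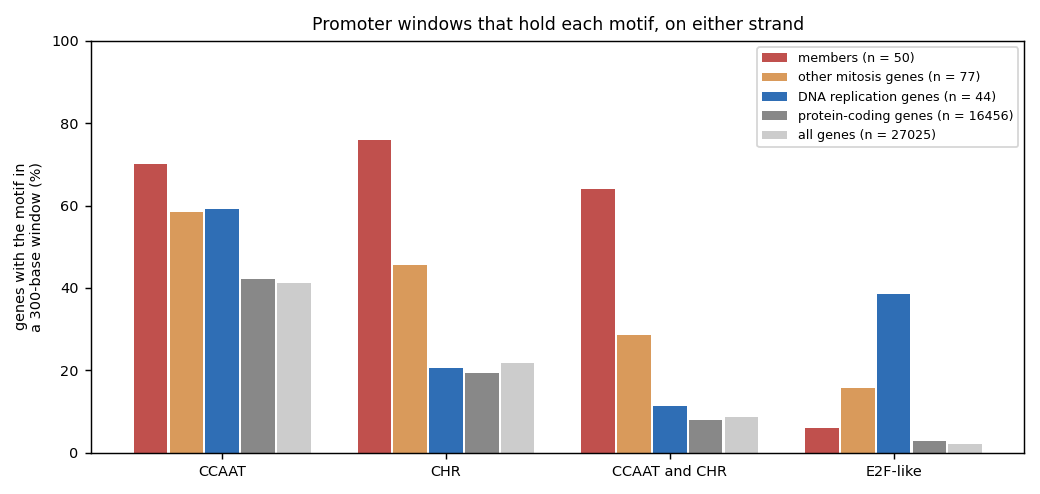
Share of genes (%) whose 300-base promoter window holds CCAAT, CHR, both, or an E2F-like motif on either strand, for the 50 members, 77 other mitosis genes, 44 DNA replication genes, 16456 protein-coding genes and all 27025 genes. CHR was in 76% of members and 21.7% of all genes, and the E2F-like motifs were in 38.6% of DNA replication genes and 6% of members.

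The depth read from the steps between low FPKM values was 25.0 to 43.0 times 1e6 fragments a heart, which for 54 of the 57 members came to at least 100 fragments in every heart (lowest 37, *Cenph*). Of the 57 members, 16 share exon bases with a gene on the other strand (*Plk1*, *Cdc25b*, *Cdc25c*, *Cdc20* and *Ube2c* among those described singly) and are less certain. *Top2a* is the 1 member that shares exon bases with a gene on its own strand, the small nucleolar RNA gene *Gm23451*. *Xist*, the RNA that coats the silenced X chromosome of females, lay between 58.03 and 97.03 FPKM in 4 hearts (E18.5d replicates 1 and 3, P7d replicates 2 and 3) in which 4 Y-linked genes were at 0, against their label as male, and at most at 0.11 FPKM in the other 5. The airway gene *Scgb3a2* was at 53.24 to 179.21 FPKM in E18.5d replicates 1 and 2 and P1d replicate 1, and at most at 1 FPKM elsewhere. Cardiomyocyte, endothelial and fibroblast markers were present in every heart. Summed cardiomyocyte markers (6 genes) came to 14298 to 14383 FPKM in the E18.5d hearts, 16951 to 18061 in the P1d hearts and 15313 to 15903 in the P7d hearts. Summed epicardial markers (4 genes) were at 44.4 to 54.2, 44.7 to 60.8 and 22.9 to 27.3 FPKM, summed endothelial markers (5 genes) at 314 to 343, 343 to 370 and 395 to 418, and summed brown fat markers (3 genes) at 5.56 to 7.77, 22.4 to 23 and 31.3 to 36.7. Summed thymocyte markers (6 genes) reached at most 1.28 FPKM and B cell markers (3 genes) at most 0.83 FPKM. Summed neutrophil and precursor markers (7 genes) were at 6.19 to 11.7 FPKM at E18.5d, 47.9 to 69.8 at P1d and 15.1 to 19.4 at P7d, and summed fibroblast markers (5 genes) at 990 to 1001, 756 to 961 and 1061 to 1132. Summed erythroid markers (5 genes) were at 1299 to 3452, 2205 to 4531 and 1405 to 1837 FPKM, and macrophage markers (4 genes) at 28.4 to 37.4, 39.3 to 58.2 and 40.4 to 45.4. Sums do not show single genes. In the cardiomyocyte and endothelial lists, some genes were called lower and others higher than at E18.5d at each postnatal stage (limma, adjusted p under 0.05). Of the fibroblast genes, 3 were lower and 0 higher at P1d, and 2 higher and 0 lower from P1d to P7d. Of the epicardial genes, 3 were lower and 0 higher at P7d than at E18.5d. At P1d, 3 macrophage and 4 neutrophil and precursor genes were higher, with 0 lower. The part of these cells in the results below was not tested.

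Transcripts of the 57 members were lower on the first postnatal day than before birth, with 1 exception, and most of them rose again to P7d without reaching the fetal level. Of the 57 genes, 56 were lower at P1d than at E18.5d and 1, *Pttg1*, was higher (limma on log2(FPKM + 1), adjusted p under 0.05), where 27.6% of all 13618 genes tested were lower and 18.4% higher. In 50 members the fall was at least 1 on the log2 scale, as in 3.35% of all genes. The median log2 change of the members was -1.53, against -0.06 for all genes tested, and the median member was at 28% of its E18.5d mean. In all 56 members that fell, every P1d heart was below every E18.5d heart, a separation shown by 32.3% of all genes.

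At P7d, 56 members were still lower than at E18.5d and 0 were higher, with *Pttg1* past the threshold in neither direction (52.1 ± 3.61 FPKM at E18.5d and 59.6 ± 2.05 at P7d, SD, n = 3). The unadjusted limma p of *Pttg1* was 0.0384, with a change upwards. Over all genes tested, 36.9% were lower and 12.5% higher at an adjusted p under 0.05. The median log2 change was -0.94, and the median member stood at 48.7% of its E18.5d mean. A fall of at least 1 on the log2 scale was seen in 20 members and in 2.81% of all genes, and the hearts of the 56 members did not overlap, as in 45.6% of all genes. All genes together had a median log2 change of -0.17 at P7d on the deposited scale and -0.02 after scaling by the median of ratios. With that scaling the median member changed by -0.77, 55 members were lower (20.9% of all genes), *Cenpa* was no longer called and *Pttg1* was called higher.

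From P1d to P7d, 48 of the 57 members rose, 2 fell (*Pttg1* and *Cdc25b*) and 7 did not pass the test, where 15.5% of all genes were higher and 28.6% lower. The median log2 change was 0.57 against -0.09 for all genes, and the median member was at 168% of its P1d mean. In 47 members every P7d heart was above every P1d heart (19.3% of all genes). The rise reached 1 on the log2 scale in 2 members, *Top2a* and *Smc2* (1.78% of all genes). With median of ratios 51 members rose and 0 fell (21.9% of all genes higher), and between P1d and E18.5d 56 were lower and 1 higher (22.9% of all genes lower).

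**Figure D2:**
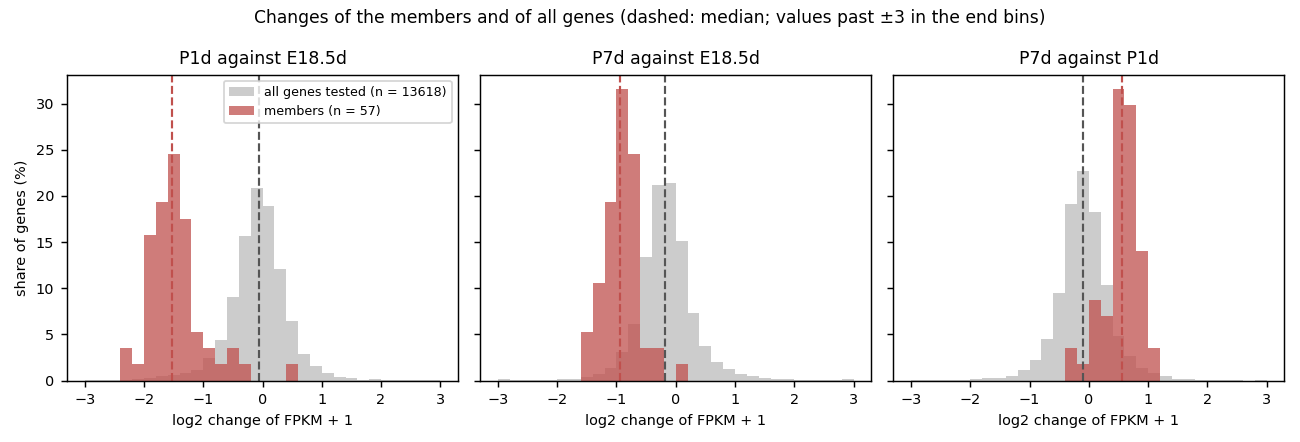
Distribution of the log2 changes of FPKM + 1 for the 57 members (red) and the 13618 genes tested (grey) in the 3 comparisons, as a share of genes (%) per bin of 0.2, with dashed medians. The members' median lies at -1.53, -0.94 and 0.57, and that of all genes at -0.06, -0.17 and -0.09.

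Taking the median over the members in each heart, the E18.5d hearts were at 98.5%, 100% and 101% of the E18.5d means. The P1d hearts were at 24.7%, 30.2% and 31.4%, and the P7d hearts at 44.7%, 46.7% and 54%. The 3 stages did not overlap in this summary. P1d replicate 1 was the lowest of its stage in 47 of the 57 members. P7d replicate 1 was the lowest of its stage in 39, and P7d replicate 3 the highest in 42. P7d replicate 3 was also the deepest library (43.0 times 1e6 fragments), and P1d replicate 1 carried the most *Scgb3a2* (179.21 FPKM). P7d replicate 1 was the only P7d heart without *Xist* (0.02 FPKM, against 58.03 and 69.96 in the others), and all P1d hearts were without it. What part depth, sex or tissue outside the heart had in this was not tested.

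Without the 4 hearts with *Xist*, 1 heart each was left at E18.5d and P7d and 3 at P1d, so that the spread in this fit came from the P1d hearts alone and the lone hearts were assumed to vary like them. The members' median log2 change was then -1.53 at P1d, with 56 members below 0. Between P7d and E18.5d it was -1.05, with 56 members below 0. Between P7d and P1d it was 0.46, with 53 members above 0. Fewer members and fewer of all genes were called in this fit. In both comparisons with P7d most or all members lost their call, including most of those described singly below. At P1d against E18.5d most members kept theirs. A covariate for *Xist* in place of leaving hearts out gave 56, 56 and 36 members called lower, lower and higher in the 3 comparisons. Of all 13618 genes, 2893, 4820 and 1467 were called so. Leaving out the 3 hearts with *Scgb3a2* left 1 E18.5d heart, 2 P1d hearts and 3 P7d hearts. The members' median log2 changes were then -1.48, -0.94 and 0.53, and fewer members and fewer of all genes were called in each comparison. Of the genes described singly below, *Bub3*, *Espl1*, *Kif18b*, *Cenpa* and *Aurkb* then lost their call at P7d (adjusted p of 0.0595 to 0.0913), *Cdc25b* lost it at P1d (adjusted p = 0.125), and *Ube2c*, *Spc25*, *Smc4* and *Cdc25b* lost it between P1d and P7d.

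**Figure D3:**
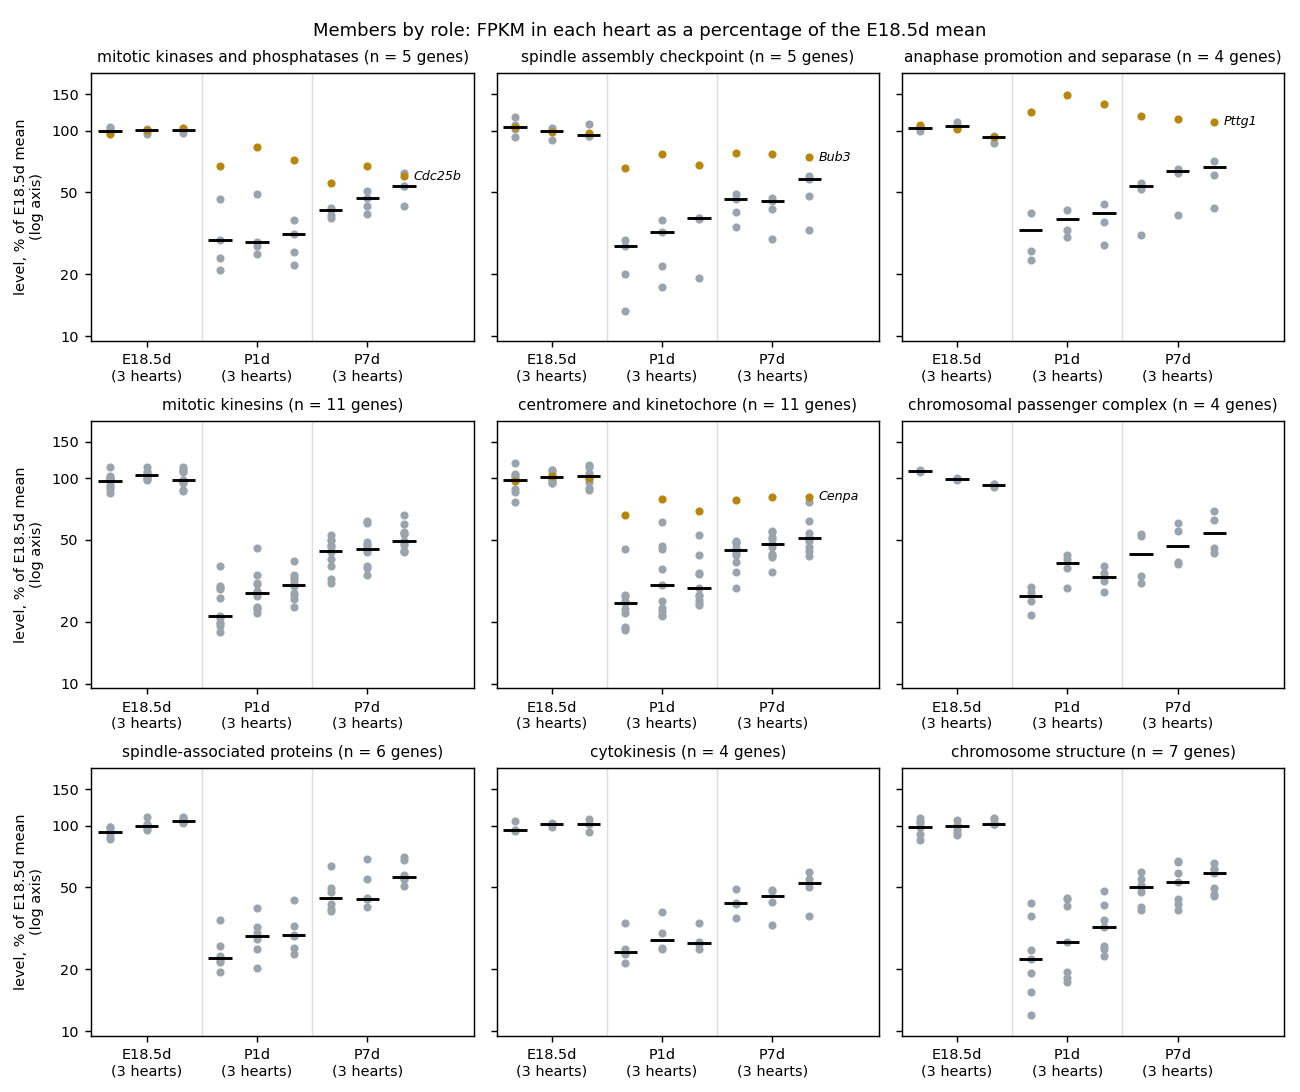
FPKM of each member in each of the 9 hearts as a percentage of its E18.5d mean (log axis), by role, with hearts in the order of their replicate number, grey dots for members, black bars for the median of the role in that heart, and 4 members coloured and named, which were chosen after their values were seen. The medians of all 9 roles are lowest in the P1d hearts and intermediate at P7d, whereas *Pttg1* stays above 100% in all 6 postnatal hearts.

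Most of the mitotic kinases and phosphatases listed here switch on and run M phase. All 5 were lower at both postnatal stages, with a median log2 change of -1.55 at P1d and -0.98 at P7d, and from P1d to P7d 3 rose, 1 fell and 1 was not called. *Aurka*, the kinase of the centrosome and spindle poles (chromosome 2, 172356190 to 172370535, minus strand, GRCm38), was at 31.76, 33.04 and 32.60 FPKM in the E18.5d hearts, at 6.84, 8.95 and 7.21 at P1d and at 12.58, 15.17 and 17.35 at P7d. The 3 stages did not overlap, and the log2 changes were -1.96 ± 0.12 (SE, adjusted p = 3.93e-06) at P1d and -1.07 ± 0.12 (adjusted p = 9.63e-05) at P7d. *Plk1*, polo-like kinase of mitotic entry and exit, was at 20.54 to 21.80 FPKM, then 5.07 to 6.12, then 8.94 to 11.44, with log2 changes of -1.77 and -0.97. Of its 50-base stretches 6.56% were shared with the pseudogene *Plk-ps1*, so its value is less certain.

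The CDC25 phosphatases, which remove the inhibitory phosphates of cyclin-dependent kinases, were not called higher at P7d than at P1d. *Cdc25b* (chromosome 2, 131186949 to 131198497, plus strand) was at 10.46, 10.84 and 11.17 FPKM at E18.5d, 7.29, 8.98 and 7.75 at P1d and 6.02, 7.26 and 6.50 at P7d. It fell at both stages (log2 change -0.40 ± 0.09, adjusted p = 0.00564, and -0.64 ± 0.09, adjusted p = 0.000371). Its further fall from P1d to P7d, -0.25 ± 0.09, passed narrowly (adjusted p = 0.0495) and was lost under 17 of the 22 alternatives, among them every other scaling (-0.15 and adjusted p = 0.229 with median of ratios), no filter (adjusted p = 0.089), eBayes without trend (adjusted p = 0.053) and leaving out any 1 of the E18.5d hearts (adjusted p of 0.0656 to 0.0718). *Cdc25c* was at 6.56 to 7.00, 2.47 to 3.30 and 2.54 to 2.91 FPKM. Its P1d and P7d hearts overlapped, and the change between them was -0.06 ± 0.10 (adjusted p = 0.624), turning to 0.02 with median of ratios. Both genes, like *Plk1*, share exon bases with a gene on the other strand, and whether counting used strand was not given in the sources used here.

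The spindle assembly checkpoint delays anaphase while kinetochores are unattached. All 5 genes were lower at P1d (median log2 change -1.53) and at P7d (-0.94), and 4 of 5 rose from P1d to P7d. *Bub1*, a kinetochore kinase that recruits the checkpoint proteins (chromosome 2, 127801122 to 127831865, minus strand), was at 18.51, 14.30 and 15.09 FPKM at E18.5d, 2.11, 2.76 and 3.06 at P1d and 5.41, 4.76 and 5.26 at P7d. At 16.6% of its E18.5d mean it had the lowest P1d level of the 57 members in percent, and at 32.2% the lowest at P7d. Its log2 changes were -2.22 ± 0.12 (adjusted p = 2.51e-06) and -1.46 ± 0.12 (adjusted p = 1.87e-05), followed by a rise of 0.76 ± 0.12 between the postnatal stages (adjusted p = 0.00101).

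*Mad2l1*, which encodes the MAD2 subunit of the inhibitor of the anaphase-promoting complex, was at 24.62 to 26.69 FPKM at E18.5d, 7.13 to 9.72 at P1d and 12.00 to 15.05 at P7d. *Bub3*, the partner that docks BUB1 and BUBR1 at kinetochores, stood apart from its role (chromosome 7, 131560222 to 131571895, plus strand). It was at 40.65, 38.40 and 37.66 FPKM at E18.5d, 25.55, 29.92 and 26.37 at P1d and 30.11, 29.95 and 28.91 at P7d. It kept 70.1% of its E18.5d mean at P1d and 76.2% at P7d, with log2 changes of -0.50 ± 0.07 (adjusted p = 0.000347) and -0.38 ± 0.07 (adjusted p = 0.0015). The postnatal stages overlapped (0.12 ± 0.07, adjusted p = 0.181), although 4 of the scalings called a rise (0.23 with median of ratios, adjusted p = 0.0229).

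The genes of anaphase promotion and separase split. *Cdc20*, the activator of the anaphase-promoting complex, was at 35.53 to 44.69 FPKM at E18.5d, 16.09 to 17.89 at P1d and 21.23 to 25.29 at P7d, and 10.4% of its 50-base stretches were shared with other genes. *Ube2c*, its ubiquitin-conjugating enzyme, was at 77.22 to 86.27 FPKM, then 21.65 to 25.28, then 25.91 to 34.72, and shares exon bases with *Tnnc2* on the other strand. *Espl1*, separase, which cuts the cohesin ring, was at 4.98 to 5.64 FPKM, then 1.24 to 1.90, then 2.96 to 3.78. These 3 genes had log2 changes of -1.21, -1.79 and -1.27 at P1d and -0.75, -1.40 and -0.52 at P7d, and all passed the test in each comparison. *Ube2c* rose by 0.39 ± 0.11 from P1d to P7d (limma, adjusted p = 0.015). That call was lost without P1d replicate 1, P7d replicate 2 or 3, and with the *Xist* covariate (adjusted p of 0.0523 to 0.112). It was also lost without the hearts with *Scgb3a2* and, like the rises of all other members, without the hearts with *Xist*.

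*Pttg1*, securin, the inhibitor of separase, went the other way (chromosome 11, 43420250 to 43426251, minus strand). It was at 55.32, 52.80 and 48.20 FPKM at E18.5d, 63.88, 77.49 and 70.13 at P1d and 61.64, 59.49 and 57.55 at P7d. All 6 postnatal hearts were above the highest fetal heart. At P1d it was 135% of the E18.5d mean, a log2 change of 0.43 ± 0.08 (adjusted p = 0.00205), and at P7d 114%, a change of 0.19 ± 0.08 (adjusted p = 0.0714) that passed under 6 alternatives, median of ratios among them (0.37, adjusted p = 0.00416). The fall from P1d to P7d, -0.24 ± 0.08 (adjusted p = 0.0369), was lost under 15 of the 22 alternatives (-0.13 and adjusted p = 0.215 with median of ratios). No other member was above its E18.5d level after birth.

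**Figure D4:**
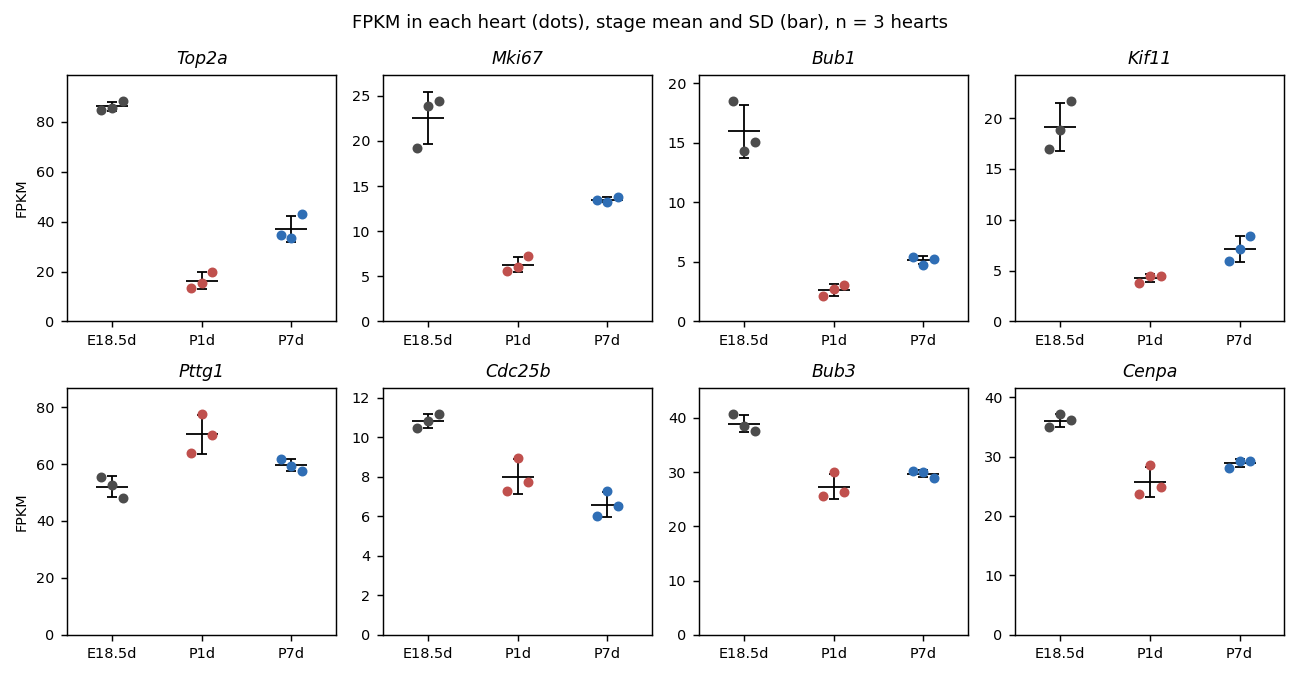
FPKM in each heart (dots) with the stage mean and SD (bars, n = 3) for 8 members. *Top2a*, *Mki67*, *Bub1* and *Kif11* drop at P1d and return in part at P7d, *Bub3* and *Cenpa* keep over 70% of their E18.5d mean, *Cdc25b* shows no return, and *Pttg1* is higher in all 6 postnatal hearts.

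Mitotic kinesins are motors that build the spindle, align chromosomes and prepare the cleavage plane. All 11 were lower at both postnatal stages and all 11 rose from P1d to P7d, with medians of -1.42, -0.91 and 0.51 on the log2 scale. Each of the 11 fell by at least 1 on the log2 scale at P1d, and 3 did so at P7d. *Kif11*, the Eg5 motor that pushes spindle poles apart, was at 16.96, 18.79 and 21.69 FPKM at E18.5d, 3.78, 4.48 and 4.51 at P1d and 5.90, 7.11 and 8.38 at P7d. It had the largest fall of the kinesins at P7d (-1.31 ± 0.13, adjusted p = 4.32e-05).

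*Kif18b*, which shortens astral microtubules, came closest to its fetal level among the kinesins, with 6.98 to 9.07 FPKM at E18.5d, 2.30 to 2.45 at P1d and 4.24 to 5.28 at P7d, or 60.3% of the E18.5d mean at P7d. *Kif23*, the motor of the centralspindlin complex at the midzone, was at 11.85 to 12.48, 3.41 to 3.64 and 5.28 to 5.87 FPKM. The 3 stages did not overlap for any of these 3 motors.

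The centromere and kinetochore genes were lower in all 11 cases at both stages (medians -1.49 and -0.83), and 7 of 11 rose from P1d to P7d. *Cenpa*, *Cenph*, *Cenpk* and *Knstrn* did not pass that test. *Ndc80*, which encodes the microtubule-binding arm of the outer kinetochore, was at 5.94, 6.23 and 6.00 FPKM at E18.5d, 1.13, 1.83 and 1.61 at P1d and 2.97, 3.06 and 3.11 at P7d, which is 25.2% and 50.3% of the fetal mean. *Spc25*, a subunit of the same complex, was at 25.05 to 28.02 FPKM, then 5.83 to 6.75, then 7.71 to 12.23, with the lowest P7d change of the group (-1.37 ± 0.13, adjusted p = 4.79e-05).

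*Cenpa*, the histone H3 variant that marks centromeres, differed from these in the size of its change (chromosome 5, 30666777 to 30674830, plus strand). It was at 34.92, 37.11 and 36.16 FPKM at E18.5d, 23.76, 28.50 and 24.84 at P1d and 28.14, 29.18 and 29.32 at P7d. It kept 71.3% and 80.1% of its fetal mean, with log2 changes of -0.48 ± 0.07 (adjusted p = 0.000572) and -0.31 ± 0.07 (adjusted p = 0.00544). The latter lost its call under median of ratios (-0.13, adjusted p = 0.15), where the rise from P1d to P7d gained one (0.27, adjusted p = 0.0119, against 0.17 and 0.0832 as deposited).

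The chromosomal passenger complex corrects wrong attachments and then moves to the midzone. All 4 genes were lower at P1d (median -1.49) and at P7d (-1.03), and 3 rose between them. *Aurkb*, its kinase, was at 18.80, 17.42 and 15.76 FPKM at E18.5d, 4.82, 7.34 and 5.45 at P1d and 9.03, 10.44 and 11.94 at P7d. *Birc5*, survivin, was at 50.29, 45.73 and 43.28 FPKM at E18.5d, 11.76, 18.82 and 16.00 at P1d and 14.28, 17.79 and 21.16 at P7d. The postnatal hearts of *Aurkb* were apart (0.75 ± 0.14, adjusted p = 0.00239), whereas those of *Birc5* overlapped (0.19 ± 0.17, adjusted p = 0.393). At P7d *Aurkb* was at 60.4% and *Birc5* at 38.2% of the fetal mean, although their proteins act in 1 complex.

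Spindle-associated proteins (6 genes) fell and rose together: all were lower at both stages (medians -1.67 and -0.94) and all rose from P1d to P7d (0.73). *Tpx2*, the activator of Aurora A on the spindle, was at 27.79 to 29.93 FPKM at E18.5d, 6.31 to 8.35 at P1d and 11.53 to 15.69 at P7d. *Hmmr*, which anchors spindle poles, was at 10.72 to 12.58, 2.68 to 3.25 and 4.58 to 6.71 FPKM. *Ckap2*, a microtubule-stabilizing protein, had the smallest loss of the group at P7d, with 9.58 to 12.30, 3.85 to 4.83 and 7.06 to 7.84 FPKM, or 67.5% of the fetal mean.

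The cytokinesis genes, which act last, were lower in 4 of 4 cases at both stages (medians -1.82 and -1.04), and all 4 rose from P1d to P7d (0.58). *Ect2*, the exchange factor that activates RhoA at the cleavage furrow, was at 25.60, 27.46 and 27.34 FPKM at E18.5d, 5.73, 6.77 and 7.27 at P1d and 9.52, 8.83 and 9.76 at P7d. With 35% of its fetal mean at P7d it was the lowest of the group (-1.42 ± 0.08, adjusted p = 2.38e-06). *Anln*, anillin, the scaffold of the contractile ring, was at 28.02 to 30.02, 7.34 to 8.81 and 12.25 to 14.78 FPKM. *Racgap1*, the partner of KIF23 in centralspindlin, was at 43.93 to 49.94, 15.79 to 17.98 and 22.78 to 25.86 FPKM, or 50.7% of the fetal mean at P7d. Both had no overlap between stages.

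On the scale of log2(FPKM + 1), the chromosome structure genes held both the largest fall and the largest return. All 7 were lower at both stages (medians -1.69 and -0.74) and all 7 rose from P1d to P7d (0.71). *Top2a*, the topoisomerase that untangles chromatids (chromosome 11, 98992943 to 99024189, minus strand), was at 84.67, 85.59 and 88.28 FPKM at E18.5d, 13.41, 15.60 and 19.98 at P1d and 34.79, 33.38 and 42.85 at P7d. Its P1d change was -2.35 ± 0.13 (adjusted p = 3.03e-06), and its rise from P1d to P7d was 1.14 ± 0.13 (adjusted p = 0.000189), both the largest among the 57 on this scale.

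*Smc2*, the ATPase common to both condensins (chromosome 4, 52439243 to 52488260, plus strand), was at 15.36, 12.71 and 14.43 FPKM, then 1.70, 2.75 and 3.57, then 6.72, 6.19 and 6.61. Its P7d mean was 2.43 times its P1d mean. *Smc4*, its partner in the same ring, was at 15.70, 17.25 and 18.53 FPKM, then 7.22, 6.96 and 8.21, then 8.77, 11.44 and 10.60, or 43.5% of the fetal mean at P1d where *Smc2* was at 18.9%. The rise of *Smc4* from P1d to P7d (0.41 ± 0.10, adjusted p = 0.0111) lost its call without the hearts with *Scgb3a2* (0.39, adjusted p = 0.072) and with the *Xist* covariate (0.31, adjusted p = 0.0896). The difference between the 2 partners was not tested.

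*Mki67*, Ki-67, the coat of mitotic chromosomes and a common proliferation marker (chromosome 7, 135689784 to 135716361, minus strand), was at 19.19, 23.91 and 24.43 FPKM at E18.5d, 5.57, 6.08 and 7.26 at P1d and 13.41, 13.28 and 13.81 at P7d. It stood at 28% and 60% of its fetal mean, with log2 changes of -1.69 ± 0.11 (adjusted p = 5.17e-06) and -0.69 ± 0.11 (adjusted p = 0.000693). *Ncaph*, the kleisin of condensin I, was at 18.28 to 19.83, 6.95 to 8.52 and 10.53 to 12.89 FPKM, and 62.7% of its fetal mean at P7d was the highest of the group.

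**Figure D5:**
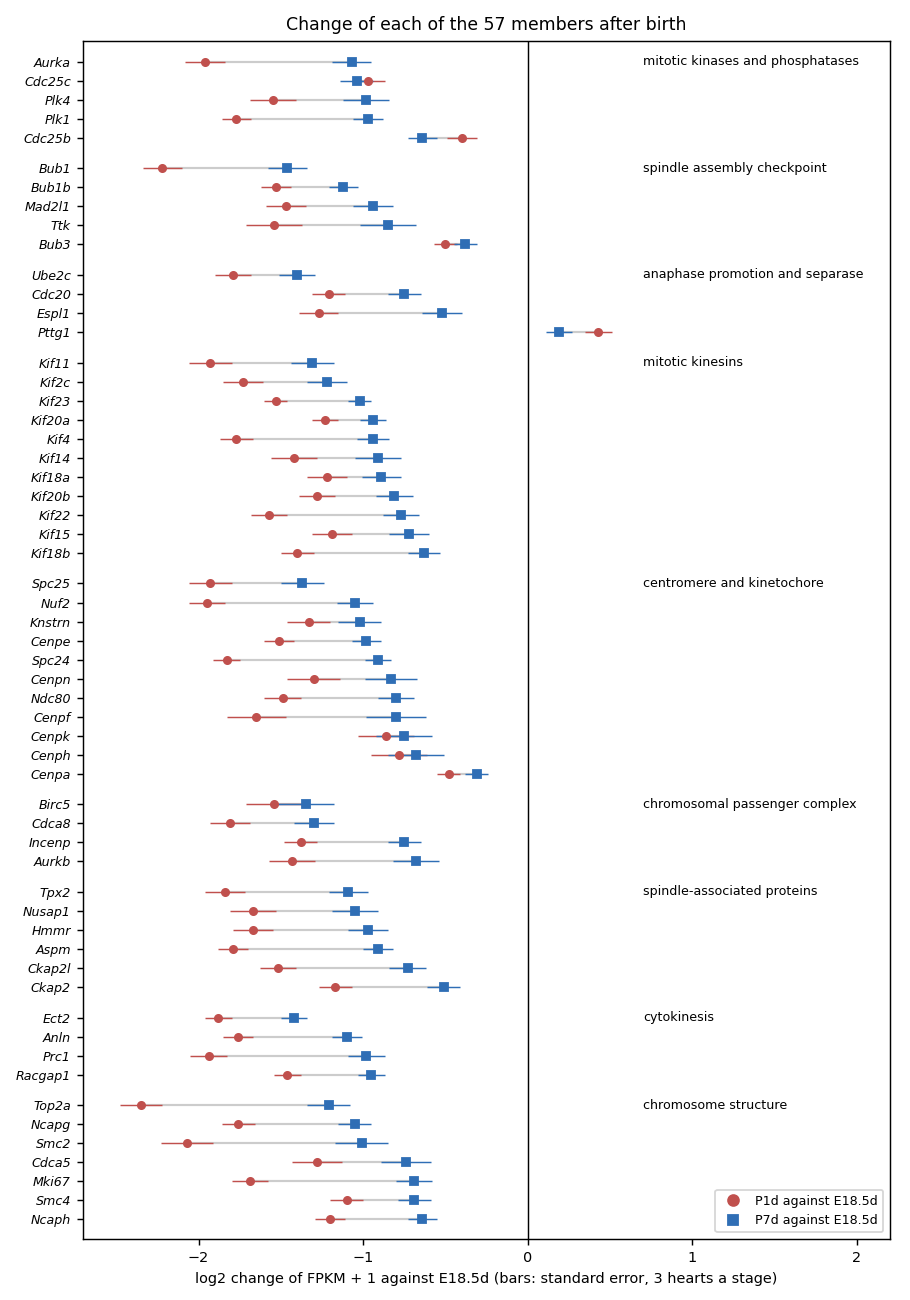
Log2 change of FPKM + 1 from E18.5d to P1d (red circles) and to P7d (blue squares) for the 57 members by role, with standard errors and a grey line joining the changes of 1 gene. Except for *Cdc25b* and *Cdc25c*, the P7d value lies nearer to 0 than the P1d value, and *Pttg1* is the only member to the right of 0.

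Other genes of the pathway were also mostly lower after birth, and about as many rose from P1d to P7d as did not pass that test. Of 94 other mitosis genes in the table, 93 were tested, and 80 were lower and 0 higher at P1d (median -0.94), 86 lower and 0 higher at P7d (-0.62), and 45 higher, 6 lower and 42 not called at P7d against P1d (0.30). The 3 with the lowest P7d change were *Ccnb1*, *Ccna2* and *Cdk1*, cyclins B1 and A2 and their kinase. *Ccnb1* was at 48.03, 48.90 and 52.15 FPKM at E18.5d, 15.16, 20.59 and 16.21 at P1d and 20.18, 19.03 and 21.13 at P7d. Its change from P1d to P7d was 0.21 ± 0.10 (adjusted p = 0.113). *Ccna2* was at 59.80 to 61.83, 13.56 to 16.59 and 22.37 to 29.97 FPKM, and *Cdk1* at 74.90 to 92.02, 16.91 to 25.71 and 34.14 to 40.09, both with a rise from P1d to P7d (0.71 and 0.75).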

How the data were processed

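RNA-seq of 9 whole hearts (E18.5d, P1d and P7d, 3 biological replicates each) was used. The authors deposited FPKM values of 48820 genes, 1 column per heart. Per the submitters' processing notes the tools and builds included STAR, GRCm38 and mm10. The counting tool, annotation and use of strand were not given in the sources used here. Gene identifiers were matched to GENCODE M21 (48058 found). The members, roles and gene lists were chosen with earlier results of these data known.

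Values were transformed to log2(FPKM + 1), a scale on which the change of a low gene comes out too small. A single limma fit (version 3.58.1, R 4.3.3, with lmFit, contrasts.fit and a trended eBayes) took all 9 hearts and the 13618 genes whose mean reached 1 FPKM, with Benjamini-Hochberg adjustment over all genes and a threshold of 0.05. The fit and the reading of depth were tested on simulated data. Members and lists were described by counts and medians, without set tests. Members described singly were landmarks of each role, the lowest and highest P7d change of each role, the 3 lowest and 3 highest changes from P1d to P7d, and any called higher after birth. In the other lists, they were the 3 lowest changes at P7d past the threshold. The highest were sought only among genes called higher at P7d, of which there were 0. Motifs were searched in RefSeq promoter windows (GRCm38.p6) with Python 3.11.15, and figures were drawn with matplotlib 3.10.9.

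Alternatives were a pseudocount of 0.1, no filter or a mean of at least 5 FPKM, 4 other scalings, eBayes without trend, only the stages compared, a replicate block, a log2 limit of 1, an *Xist* covariate, leaving out hearts with *Xist*, and leaving out each heart. Leaving out hearts with *Scgb3a2* was added after seeing the data. Same-numbered hearts did not deviate together (r of -0.05 to 0.11 over 9 pairs), so the numbers were not taken as pairs.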

Additional observations from a re-analysis of the deposited data

How the results depend on the processing

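The counts of members lower than at E18.5d stayed at 55 or 56 of 57 at both postnatal stages under the other scalings, pseudocount, eBayes, filter-free, stage-restricted, block and *Xist* covariate settings. One exception was the stricter filter, which tested 44 members and called 43. The others were the settings without the hearts with *Xist* and without the hearts with *Scgb3a2*. In both, fewer members and fewer of all genes were called lower at each postnatal stage. Without the hearts with *Xist* most members lost their call at P7d, whereas without those with *Scgb3a2* most kept it. Only 20 members at P7d, and 2 rising from P1d to P7d, reached a log2 change of 1, and 0 members were then called higher at P1d or lower from P1d to P7d. Without the hearts with *Xist*, *Pttg1* lost its call at P1d (log2 change 0.41), and the calls of members between P7d and P1d were lost. The reduced number of hearts is part of that setting's construction.

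The single member higher at P7d than at E18.5d (1, *Pttg1*) was called with protein-coding nuclear sums, median of ratios, quantile normalization and only the 2 stages compared. The members lower at P7d than at P1d fell from 2 to 1 without the hearts with *Scgb3a2* and to 0 with no filter, with all 4 scalings, without trend, with only 2 stages and with the *Xist* covariate. The cause was not tested. The median change at P1d was -1.78 and that from P1d to P7d was 0.72 with a pseudocount of 0.1, and the median at P7d was -0.78 with protein-coding nuclear sums and -0.77 with median of ratios. *Cdc25c* turned from -0.06 between P1d and P7d to 0.03 with equal sums, 0.05 with protein-coding nuclear sums and 0.02 with median of ratios, and *Birc5* turned to -0.09 without the hearts with *Xist*.

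Leaving out 1 heart in turn gave 56 lower and 1 higher members at P1d (median -1.57 to -1.45), 56 lower and 0 to 1 higher at P7d (median -0.99 to -0.88), and 42 to 49 higher and 0 to 2 lower from P1d to P7d (median 0.51 to 0.65). The 1 higher member at P7d appeared without P1d replicate 1 or 2. The lower members from P1d to P7d were 0 without E18.5d replicate 2, P1d replicates 2 or 3, or P7d replicates 1 or 3, and 1 without E18.5d replicates 1 or 3 or P7d replicate 2.

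With the replicate number as a block, 56 members were lower at P1d and P7d and 47 were higher and 2 lower from P1d to P7d. The hearts shared only a number, with 1 of 9 same-numbered pairs correlated above 0.1. With 3 hearts a stage, *Cenph*, *Cenpk* and *Cdca5*, the members with under 100 estimated fragments in some heart, are the least precise.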

Other observations

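The genes of DNA replication, which act in S phase before the members do, were mostly lower after birth too. Of 54 listed, 52 were lower and 0 higher at P1d than at E18.5d (median log2 change -1.23), 50 lower and 0 higher at P7d (-0.64), and 36 higher, 2 lower and 16 not called at P7d against P1d (0.62). The median gene stood at 36.7% of its E18.5d mean at P1d and at 61.3% at P7d, where the median member of the mitosis genes stood at 28% and 48.7%. The difference between the lists was not tested.

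*Ccne2*, cyclin E2 of the entry into S phase, was at 17.41, 15.21 and 16.51 FPKM at E18.5d, 0.97, 2.30 and 1.54 at P1d and 4.99, 6.36 and 5.46 at P7d. Its log2 changes were -2.77 ± 0.17 at P1d (limma, adjusted p = 3.78e-06), -1.40 ± 0.17 at P7d (adjusted p = 0.000146) and 1.37 ± 0.17 from P1d to P7d (adjusted p = 0.000232). *Ccne1*, cyclin E1, was at 6.99 to 8.26, 1.83 to 2.40 and 2.29 to 3.76 FPKM. *Gins1*, a subunit of the replicative helicase, was at 9.15 to 10.19, 2.51 to 3.88 and 3.58 to 3.82 FPKM, and its postnatal hearts overlapped (0.19 ± 0.11, adjusted p = 0.216).

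Members whose proteins work together stood at like levels at P7d in some cases and at unlike levels in others. *Ndc80* and *Spc24* were at 50.3% and 50.2% of their fetal means, *Aurka* and its activator *Tpx2* at 46.3% and 45.6%, and *Kif23* and *Racgap1* at 45.1% and 50.7%. In turn, *Smc2* and *Smc4* were at 45.9% and 59.8% of their fetal means, *Spc24* and *Spc25* at 50.2% and 36.9%, and *Aurkb* and *Birc5* at 60.4% and 38.2%. *Bub1* and *Bub3* were at 32.2% and 76.2%, and *Espl1* and its inhibitor *Pttg1* at 64% and 114%. These pairs were chosen after their values were seen, and no test of the differences was run.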
